A study of Rattus norvegicus with 4 samples.

Results

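Tgfb1, Ccn2 (formerly Ctgf) and Ccn1 (formerly Cyr61) were followed in the fracture callus of diabetic and control rats. They were chosen by 3 Ensembl identifiers, ENSRNOG00000020652, ENSRNOG00000015036 and ENSRNOG00000014350, among 20174 gene probes. Each has 1 probe on the array, a value in every column of the deposited table and no spot with a bad quality flag. The arrays list identifiers only, so the symbols rest on the pairing given when the genes were chosen, and markers of callus cell types and other genes of the pathway were not analysed here. Male Sprague-Dawley rats aged 12 weeks received 40 mg/kg streptozotocin, a toxin of insulin-producing beta cells, or sodium chloride as a sham injection, and all then had a closed transverse femoral shaft fracture held by an intramedullary wire. The groups are diabetic callus of day 11, control callus of day 11, diabetic callus of day 5 and control callus of day 5 after fracture. Blood glucose was over 300 mg/dl in the diabetic groups and normal in the control groups. Tissue of 5 animals was pooled for each group and hybridised to 1 single-colour array, so the 4 arrays carry no measure of the spread between animals and the pairwise differences have no replicate check.

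TGF-beta 1, the product of Tgfb1, is secreted in a latent form, stored in platelets and bone matrix, and released at sites of injury. Once active, it signals through paired receptor kinases to SMAD transcription factors, and in fracture repair it is known for its actions on chondrocytes, osteoblasts and matrix synthesis. CCN2, connective tissue growth factor, and CCN1, cysteine-rich angiogenic inducer, are secreted matricellular proteins that bind integrins and other matrix partners. Both are known from human and mouse cells as immediate targets of the co-activators YAP and TAZ, which act through TEAD factors, and CCN2 is also a long-known target of TGF-beta. Ccn2 is expressed strongly by hypertrophic chondrocytes, and Ccn1 is known for its part in vessel growth and early cartilage.

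The stretch before each gene's start is shown because the 2 CCN genes varied widely over the arrays and Tgfb1 varied little. Their normalized log2 values spanned 1.84 for Ccn2 and 1.5 for Ccn1, against 0.22 for Tgfb1. Tgfb1 nevertheless had the same highest and lowest arrays as Ccn2, and a link between motifs and levels was not tested. All 3 genes were matched by symbol to RefSeq promoters of the rat build GRCr8. The 250 bases before the annotated start are given 5′ to 3′ on the gene's strand, with matches to the TEAD motif GGAATG, on either strand, in capitals.
Ccn2, chr1:22624615-22624864, minus strand: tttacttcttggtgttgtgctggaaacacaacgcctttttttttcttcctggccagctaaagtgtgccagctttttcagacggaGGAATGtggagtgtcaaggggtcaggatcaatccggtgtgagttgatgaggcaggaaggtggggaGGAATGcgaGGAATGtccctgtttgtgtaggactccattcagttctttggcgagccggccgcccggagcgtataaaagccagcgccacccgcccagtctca
Ccn1, chr2:237225690-237225939, minus strand: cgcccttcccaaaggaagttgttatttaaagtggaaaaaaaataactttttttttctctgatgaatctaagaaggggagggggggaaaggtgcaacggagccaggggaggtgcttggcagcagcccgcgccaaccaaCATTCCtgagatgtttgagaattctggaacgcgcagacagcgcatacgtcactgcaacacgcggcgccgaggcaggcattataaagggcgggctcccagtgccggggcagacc
Tgfb1, chr1:90324062-90324311, plus strand: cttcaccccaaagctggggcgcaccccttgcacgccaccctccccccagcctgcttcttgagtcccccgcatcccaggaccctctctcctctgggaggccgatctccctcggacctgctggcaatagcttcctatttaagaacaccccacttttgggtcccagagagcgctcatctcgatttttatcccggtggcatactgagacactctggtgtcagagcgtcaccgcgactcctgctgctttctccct

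The Ccn2 stretch held 3 matches to GGAATG, all on its own strand, which begin 166, 101 and 92 bases before the start. The Ccn1 stretch held 1 match, read on the opposite strand as CATTCC, from 113 to 108 bases before the start. The Tgfb1 stretch held 0 matches. Among 33469 rat promoters cut to the same 250 bases, 12.1% held at least 1 match and 27 promoters, or 0.0807%, held at least 3. The SMAD box CAGAC, searched on both strands, occurred once before Ccn2, at 2 positions before Ccn1 and at 0 before Tgfb1. Of all promoters, 42.9% held at least 1 and 11.5% at least 2. Its shorter form GTCT, whose reverse complement AGAC lies inside every CAGAC, occurred in 84% of promoters and also in that of Tgfb1. The string TGANTCA, searched for AP-1 with any base allowed at N, was found in 0 of the 3 stretches and in 6.34% of promoters. A match is a string of letters in this window and does not show binding.

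**Figure D1:**
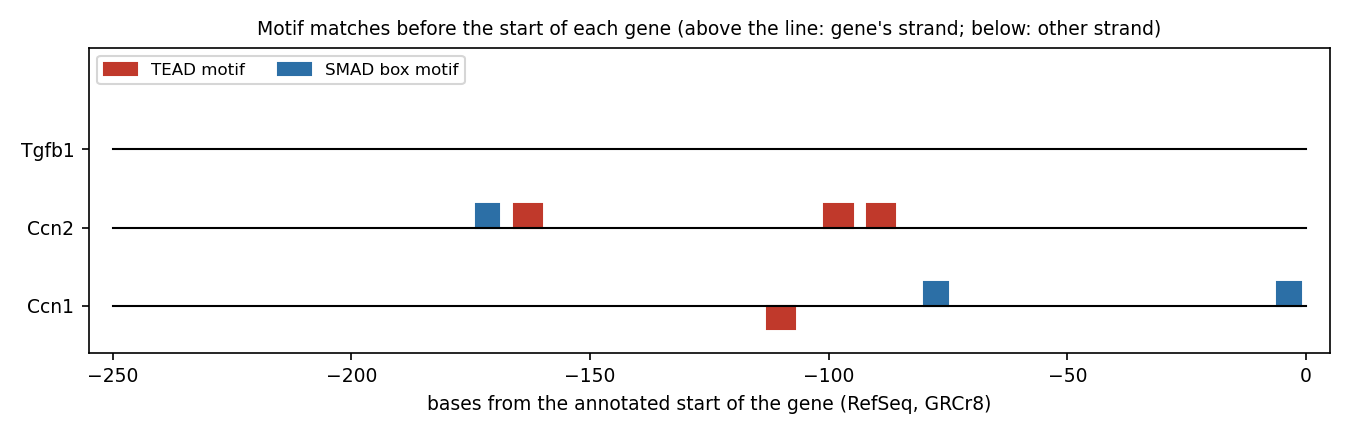
Positions of TEAD and SMAD box motif matches in the 250 bases before the annotated start of Tgfb1, Ccn2 and Ccn1 (x axis, bases from the start). Blocks above a line are on the gene's strand and blocks below it on the other strand: Ccn2 has 3 TEAD matches, Ccn1 has 1 and Tgfb1 has 0.

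All 3 genes were well above the blank spots on all 4 arrays. The local background column was higher than the blank spots. It stood at 82% to 92.9% of the spot median for Ccn2, 19% to 54.6% for Ccn1 and 54.9% to 64.3% for Tgfb1. Net signal, the brightness of the spot after the mean of the blank spots is taken off, was compared with the margin by which the detection limit lies above that mean. For Tgfb1, the dimmest, net signal was 38.4 to 53.1 times that margin. The margin was exceeded 309 to 984 times by Ccn1 and 1240 to 5050 times by Ccn2. The brightness of different probes does not rank the amounts of their transcripts. The other values below are normalized intensities, which include an offset of 50. The offset matters for Tgfb1, whose net signal of 59.05 to 76.18 is close to it, and hardly for Ccn2 and Ccn1.

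Tgfb1, the ligand, differed little over the 4 arrays at the main setting. Its normalized intensity was 130.9 in diabetic and 112.5 in control callus on day 11, and 121.3 in diabetic and 122.7 in control callus on day 5. Both conditions and both days overlap in this range, which spans 0.22 on the log2 scale. Diabetic minus control, the log2 difference was 0.22 on day 11 and -0.02 on day 5. Day 11 minus day 5, it was 0.11 in diabetic and -0.12 in control callus. Without the offset the day 11 difference between the conditions was 0.37, and with the local background subtracted it was 0.66, with a day difference of 0.55 in diabetic callus. At the main setting, a difference at least as large in either direction was found for 30.5% of all genes between the conditions on day 11 and for 87.5% on day 5. The authors' deposited table has no offset and lists Tgfb1 at 44.5 in diabetic and 33.73 in control callus on day 11, a 1.32-fold difference, and at 41.33 in diabetic and 43.14 in control callus on day 5.

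Ccn2, known both as a TGF-beta target and as a cartilage and wound growth factor, was higher in diabetic than in control callus on both days. Normalized intensity was 7447 in diabetic and 2077 in control callus on day 11, and 5668 in diabetic and 4071 in control callus on day 5. The day 11 control array stands lowest and the day 11 diabetic array highest, with the day 5 arrays between them. Ccn2 was thus 3.58-fold higher in diabetic callus on day 11 and 1.39-fold higher on day 5, log2 differences of 1.84 and 0.48. On day 11 it ranked 106th of 16732 genes for being higher in diabetic callus. Among 188 genes of like brightness, with mean log2 values within 0.5 of that of Ccn2, 2 were as far apart on day 11 and 35 on day 5. In control callus Ccn2 was lower on day 11 than on day 5 by 1.96-fold, just short of 2-fold, while in diabetic callus it was 1.31-fold higher on day 11. The sign of the day difference in diabetic callus depends on the background used: log2 differences were 0.39 with the blank-spot background and -0.42 when normexp used the local background column. The authors' deposited table gives a 4.05-fold difference between diabetic and control callus on day 11 and a 1.49-fold difference on day 5, and a 2.16-fold lower value on day 11 than on day 5 in control callus.

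Ccn1, an angiogenic matricellular protein, was likewise higher in diabetic callus on day 11 but nearly level between the conditions on day 5. Its normalized intensity was 1270 in diabetic and 539.8 in control callus on day 11, and 1525 in diabetic and 1382 in control callus on day 5. The day 11 control array stands apart below the other three, which lie close together. The diabetic over control fold was 2.35 on day 11 and 1.1 on day 5, log2 differences of 1.23 and 0.14. Of 672 genes of like brightness, 54 were as far apart between the conditions on day 11 and 425 on day 5. On day 11 the level was lower than on day 5 in both conditions, by 1.2-fold in diabetic and 2.56-fold in control callus. The control difference of -1.36 on the log2 scale ranked 48th of 16893 genes for being lower on day 11. Of the 672 genes of like brightness, 15 (2.23%) were as far apart in that comparison. In the authors' deposited table Ccn1 was 2.61-fold higher in diabetic than in control callus on day 11 and 1.18-fold higher on day 5. The same table has it 2.93-fold lower on day 11 than on day 5 in control callus.

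**Figure D2:**
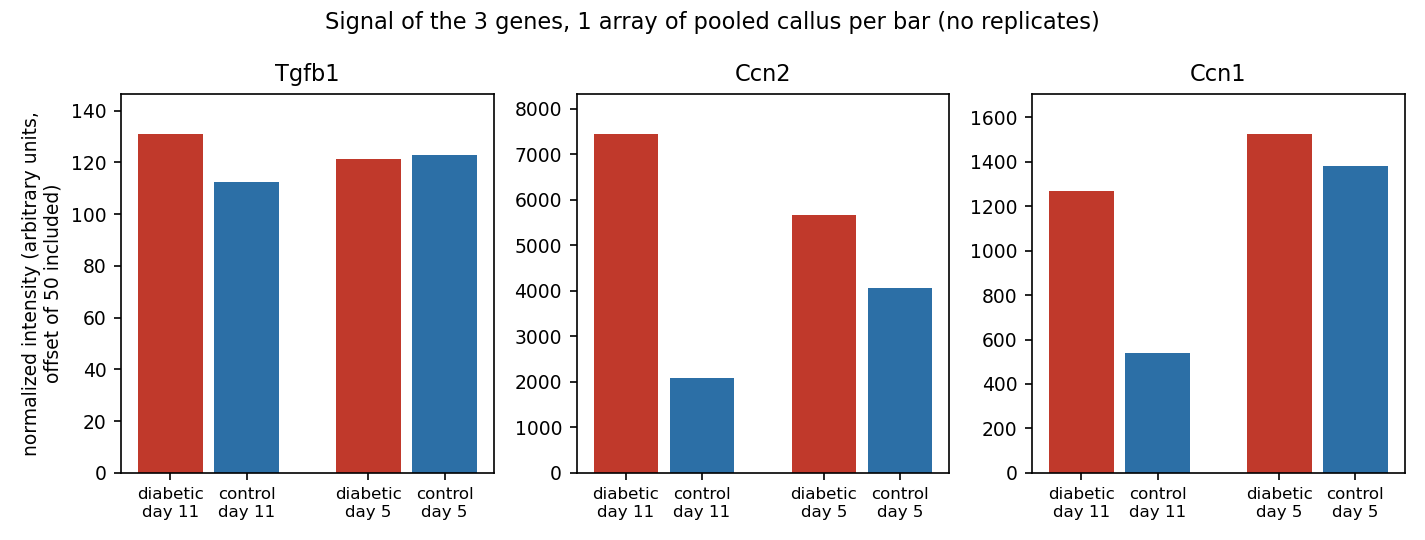
Normalized intensity (y axis, arbitrary units from 0, offset of 50 included) of Tgfb1, Ccn2 and Ccn1 on each of the 4 arrays, diabetic in red and control in blue, with 1 array of pooled callus per bar and so no error bars. Ccn2 and Ccn1 are lowest on the day 11 control array, at 2077 and 539.8, while Tgfb1 lies between 112.5 and 130.9.

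Repeat spots of a bright positive control probe, 24 on each array, give the only measured error, which covers spot-to-spot scatter within an array and not animals, pooling or labelling. The SD of a difference between 2 single spots was 0.165 to 0.219 on the log2 scale, depending on the arrays. For Ccn2 the order was diabetic day 11, diabetic day 5, control day 5 and control day 11, and its neighbouring steps were 2.17, 2.63 and 4.73 such SDs. The first of these steps turns direction with the local background, at -0.42 in normexp and -0.45 when subtracted. For Ccn1 the order was diabetic day 5, control day 5, diabetic day 11 and control day 11. Its first pair of steps, 0.784 and 0.741 SDs, were each under 1 SD. Day 11 minus day 5 in diabetic callus, which spans both of them, was -1.46 SDs. The last step, 6.02 SDs, was the widest. For Tgfb1 each of the 3 neighbouring steps was under 1 SD, the widest at 0.572. Between its highest and lowest arrays, diabetic minus control on day 11, the difference was 1.07 SDs. Tgfb1 is much dimmer than the control probe, its differences are reduced by the offset and its own spot error was not measured, so these SDs do not apply to it closely.

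Counted by size at the main setting, 2 of the 3 genes, Ccn2 and Ccn1, were at least 2-fold apart between the conditions on day 11. The share over all genes tested was 4.27%, or 714 of 16732. That share depends on the offset, which reduces the differences of dim genes most. Without it 2181 genes were at least 2-fold apart, while the log2 differences of Ccn2 and Ccn1 were 1.87 and 1.32. On day 5, 0 of the 3 genes were at least 2-fold apart, against 1.5% of all genes at the main setting. Between the days, 1 of 3, Ccn1, was at least 2-fold apart in control callus (1.68% of all genes) and 0 of 3 in diabetic callus (1.35%). The middle of the 3 log2 differences, diabetic minus control, was that of Ccn1 on both days, 1.23 on day 11 and 0.14 on day 5. Medians over all genes were 0.001 and 0.007, which quantile normalization holds near 0. The day 11 control array enters both comparisons in which a gene passed 2-fold, and is the lowest of the 4 arrays for each of the 3 genes. In the comparisons without that array, 0 of the 3 genes passed 2-fold at the main setting, although Ccn2 did on day 5 between the conditions, at a log2 difference of 1.08, when the local background was subtracted. The genes printed in the same array blocks as the 3 probes had median day 11 differences between diabetic and control callus of -0.03 to 0.02 on the log2 scale.

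The difference between diabetic and control callus was wider on day 11 than on day 5 for Ccn2 by 1.36, for Ccn1 by 1.09 and for Tgfb1 by 0.24 on the log2 scale. A change of at least 1 in either direction was found for 2.91% of 16101 genes. An upward change as large as that of Ccn2 was found for 150 of them, or 0.932%, and one as large as that of Ccn1 for 231, or 1.43%. Among genes of like brightness the shares were 2.13% for Ccn2 and 3.57% for Ccn1, while 16.8% of genes as bright as Tgfb1 changed upward by as much as it did. With 4 arrays in 4 groups this change cannot be tested. With the local background in normexp the change of Ccn2 was 0.56, and with it subtracted the changes were 0.76 for Ccn2 and 0.89 for Tgfb1. In whole callus, fewer cells that express a gene and less transcript per cell cannot be told apart.

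**Figure D3:**
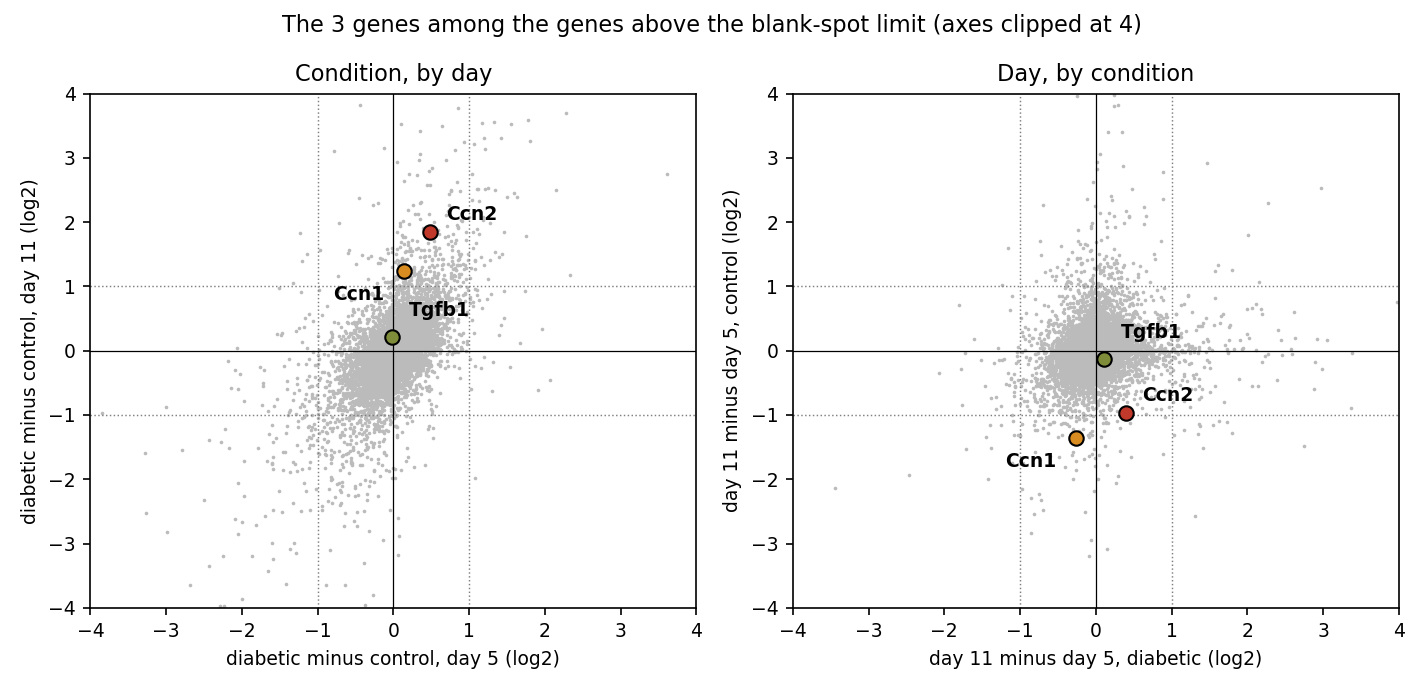
Log2 differences of 16101 genes (grey points), diabetic minus control on day 5 (x) and day 11 (y) at left, and day 11 minus day 5 in diabetic (x) and control (y) callus at right, with dotted lines at 2-fold and 25 and 11 points outside the axes. Ccn2 and Ccn1 lie above 1 on the day 11 axis at left and at -0.97 and -1.36 on the control axis at right, and Tgfb1 lies within 0.22 of 0 on each axis.

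The effects averaged over pairs of arrays were tested with limma, with 1 residual degree of freedom per gene. Ccn2 averaged 1.16 (SE 0.446) higher in diabetic callus on the log2 scale over both days, with a limma adjusted p of 0.406. For Ccn1 the value was 0.69 (SE 0.357, limma adjusted p 0.502) and for Tgfb1 0.1 (SE 0.0866, limma adjusted p 0.678). None of the 3 passed, nor did any of the 17661 genes tested (0% called), although 2657 had an unadjusted p under 0.05. The error term is the unequal size of the diabetes effect on the 2 days, so for Ccn2 and Ccn1 their wider day 11 difference enters it as error. The day effect averaged over conditions was -0.81 (SE 0.357, limma adjusted p 0.659) for Ccn1, -0.29 (SE 0.446, limma adjusted p 0.91) for Ccn2 and -0.01 (SE 0.0866, limma adjusted p 0.992) for Tgfb1, and again 0% of genes were called, with 1613 at an unadjusted p under 0.05.

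The profiles of the genes over the 4 arrays were compared by the root mean square difference of log2 values centred on each gene's own mean, for genes that exceeded the limit on each of the 4 arrays. Ccn1 and Ccn2 differed by 0.358 on this scale. Of 14681 other genes, Ccn1 was the 198th nearest to Ccn2 (1.35% of genes as near), and Ccn2 the 305th nearest to Ccn1 (2.08%). Tgfb1 was the 2515th nearest to Ccn2 (17.1%) and the 2835th nearest to Ccn1 (19.3%). Seen from Tgfb1, Ccn2 was the 14237th nearest (97%) and Ccn1 the 14089th (96%). This measure depends on the size of the differences as well as their direction. Tgfb1 and Ccn2 were both highest on the diabetic day 11 array and lowest on the control day 11 array. The gene nearest to Ccn2 was ENSRNOG00000010747, at 0.0822, with diabetic minus control log2 differences of 1.62 on day 11 and 0.54 on day 5. The gene nearest to Ccn1 was ENSRNOG00000019240, at 0.0767, with differences of 1.35 on day 11 and 0.15 on day 5. At the main setting the profile of Tgfb1 is so flat that 10769 genes lay within 0.2 of it. Of these ENSRNOG00000012055 was nearest, at 0.00589. The offset reduces the differences of Tgfb1 and of other dim genes, and likeness was not computed without it. These likenesses rest on 4 values a gene.

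**Figure D4:**
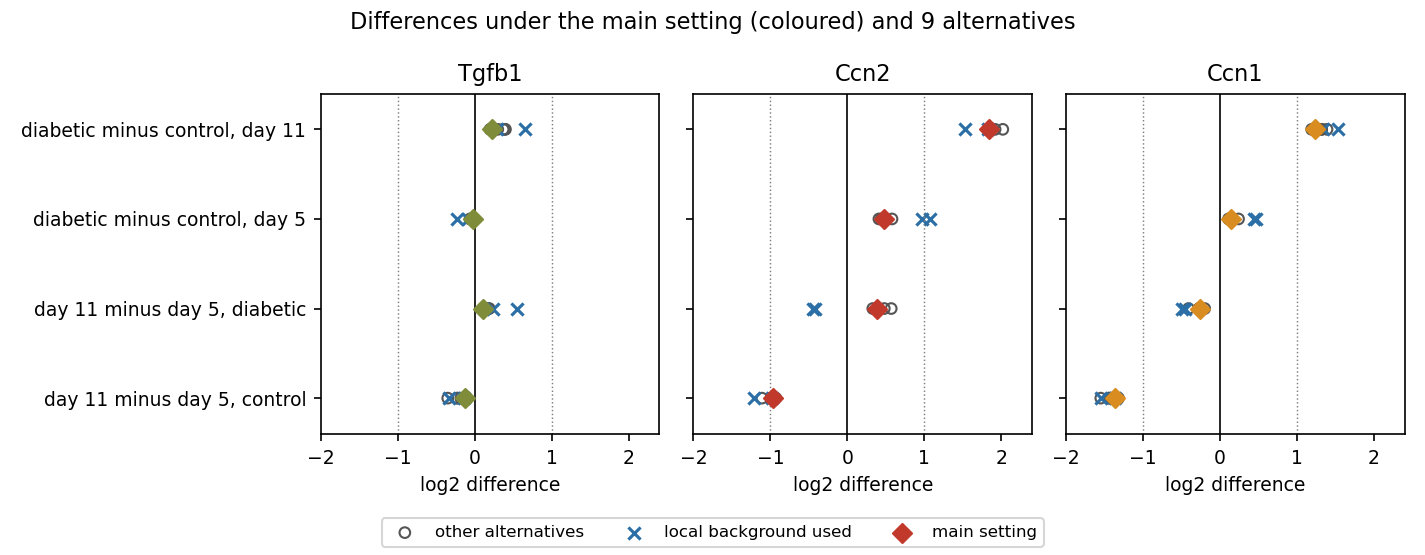
Log2 differences (x axis) of Tgfb1, Ccn2 and Ccn1 in 4 comparisons (rows) under the main setting (coloured diamonds) and 9 other settings (circles, or crosses where the local background column was used), with dotted lines at 2-fold. The day 11 difference between diabetic and control callus lies between 1.53 and 2.02 for Ccn2 and between 1.19 and 1.53 for Ccn1 under the other settings, and no Tgfb1 value reaches 1.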

How the data were processed

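Spot median and local background intensities at 635 nm were deposited for each array, per the file headers, combined over 3 scanner gains by a procedure not given in the sources used here. The authors' table of processed intensity values was found to equal net signal (spot median less the trimmed mean of the blank spots) times 1 factor per array (largest residual 0.00519). Here spot medians were background-corrected in limma 3.58.1 (R 4.3.3) by normexp, adding 50, against the blank-spot mean, trimmed by 5% at both ends. Probes of 13 genes flagged as bad anywhere were left out, which left 20161 genes, and arrays were quantile normalized. A gene entered a comparison if it exceeded the blank-spot mean plus 2 SD on 1 or both arrays; 78.6% to 81.23% of genes did so per array. The number of arrays limits the precision. Groups followed the sample titles. An additive limma fit (condition and day) was adjusted by Benjamini-Hochberg over all genes at 0.05. Alternatives changed the background, offset, normalization, flags, filters and limma options. Of the 47357 reference genes, 0 carry an Ensembl identifier, so the fixed lists of TGF-beta pathway genes and cell type markers were not used here. The genes named are the 3 chosen ones, whatever their values, and the gene nearest to each in profile. The members, lists, motifs and tests were chosen with earlier results of these data known. Like-brightness counts, array block medians and the order of levels in repeat-spot SDs were added after the data were seen.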

Additional observations from a re-analysis of the deposited data

Results flagged for a closer look

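The day difference of Ccn2 had opposite signs in the 2 conditions, at 0.39 in diabetic and -0.97 in control callus on the log2 scale. This contrast was not tested, and the diabetic value changes sign with the local background. Tgfb1 had opposite signs in the same comparison, at 0.11 in diabetic and -0.12 in control callus, and in the comparison of conditions, at 0.22 on day 11 and -0.02 on day 5. Neither was tested. These Tgfb1 values are reduced by the offset, and the day 11 difference was 0.37 without it. Negative control spots, which enter no comparison, often exceeded the blank-spot limit: 69.8% of 96 spots on the diabetic and 49% on the control array of day 11, and 66.7% on the diabetic and 55.2% on the control array of day 5. Ccn2, Ccn1 and Tgfb1 also exceeded a limit set on those negative controls on all 4 arrays.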

How the results depend on the processing

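Ccn2 and Ccn1 were more than 2-fold apart on day 11 between the conditions, and Ccn1 between day 11 and day 5 in control callus, under all 9 other settings of the values and in the same direction. Most of the shifts larger than spot error came with the local background column. With it in normexp, the diabetic minus control log2 difference of Ccn2 was 1.53 on day 11 and 0.97 on day 5, its change between the days 0.56 and its day difference in diabetic callus -0.42; Ccn1 had 0.44 on day 5 and a day difference of -0.46 in diabetic callus. With it subtracted, Ccn2 had 1.08 on day 5, day differences of -0.45 in diabetic and -1.21 in control callus, and a change of 0.76. Ccn1 then had 1.53 on day 11, 0.47 on day 5 and a day difference of -0.5 in diabetic callus. Tgfb1 had 0.66 on day 11, -0.23 on day 5, a change of 0.89, and day differences of 0.55 in diabetic and -0.34 in control callus. The day effect of Tgfb1 averaged over conditions was -0.01 but 0.11 with the local background subtracted and 0.05 with it in normexp. In the authors' table the day difference of Tgfb1 in control callus was -0.35, and that of Ccn2 was -1.11, past 2-fold. The cause of these shifts was not tested. Over all alternatives the limma adjusted p for diabetes was 0.271 to 0.86 for Ccn2, 0.337 to 0.936 for Ccn1 and 0.562 to 1 for Tgfb1. With the trend and robust options of limma, 3 genes of the whole array were called for diabetes, none of them Tgfb1, Ccn2 or Ccn1. Counts of genes at least 2-fold apart depend strongly on the setting. They ran from 714 to 5642 between the conditions on day 11 (main setting 714), from 254 to 4790 on day 5 (256), from 223 to 5555 between the days in diabetic callus (227) and from 283 to 4401 in control callus (283). No replicate numbers link the arrays. The additive fit already compares the conditions within each day, and without its day term the limma adjusted p for diabetes was 0.396 for Ccn2, 0.675 for Ccn1 and 0.651 for Tgfb1.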

Other observations

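The local background column followed the spot itself for Ccn2, at 92.9% of the spot median in diabetic and 92% in control callus on day 11, and at 82% in diabetic and 90.5% in control callus on day 5. For Ccn1 it was 48.1% of the spot median in diabetic and 54.6% in control callus on day 11, and 46.8% in control callus on day 5, but 19% in diabetic callus on day 5. For Tgfb1 it was 54.9% in diabetic and 64.3% in control callus on day 11, and 56% in diabetic and 58.2% in control callus on day 5.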
